A study of Rattus norvegicus with 12 samples.

Results

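Expression of the aryl hydrocarbon receptor (AhR) and 6 genes of its pathway was followed in liver of rats given triazole fungicides. The 7 genes are Cyp1a1, Cyp1a2 and Cyp1b1, which make up the Cyp1 family of cytochrome P450 enzymes, Ahr itself, its partner Arnt, its repressor Ahrr, and Tiparp. They are 7 of 14217 genes with a probe set of their own, and 9 of the 31099 probe sets on the array are annotated to 1 of them alone. RNA came from whole liver of 12 male Sprague-Dawley rats aged 10 weeks, 1 liver per Affymetrix Rat Genome 230 2.0 array, with 3 rats in each of 4 groups. The groups were control, myclobutanil and propiconazole at 300 mg/kg/day each, and triadimefon at 175 mg/kg/day. Dosing was by gavage every 24 hours over 72 hours. What the control rats received is not given in the labels. Myclobutanil and propiconazole were thus matched in dose and time, while triadimefon was given at a lower dose.

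AhR is a transcription factor held in the cytosol by chaperones until a ligand binds. It then enters the nucleus, pairs with Arnt and binds short xenobiotic response elements in DNA, which raises transcription of Cyp1a1, Cyp1a2 and Cyp1b1. Ahrr and Tiparp are themselves targets and dampen the response, Ahrr by competing for Arnt and Tiparp by modifying the receptor. In liver, Cyp1a2 is made constitutively by the hepatocytes around the central vein, Cyp1a1 is low until induced, and Cyp1b1 is mainly a gene of non-parenchymal cells.

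Levels are given in the log-like units of the deposited table, whose base and centring no source used here gives, so differences are printed and no fold changes. As a yardstick, the spike-in controls CreX and BioB, which Affymetrix adds in rising amounts, were 2.48 units apart in the median array. Levels of different probe sets are not compared, since each probe set has its own brightness. Deposited medians lay between 0.0182 and 0.0552 on 11 arrays and at 0.157 on the array of myclobutanil replicate 1, whose median correlation with the others was 0.931 after quantile normalization, against 0.963 to 0.982 for the rest. The difference between 3' and 5' probe sets of Gapdh, a measure of RNA integrity, was 0.659 ± 0.252 in control livers, and 0.624 ± 0.128, 0.434 ± 0.106 and 0.587 ± 0.212 after myclobutanil, propiconazole and triadimefon (SD, n = 3). The same difference for actin was 0.682 ± 0.202 in control livers and 0.807 ± 0.145, 0.636 ± 0.0925 and 0.838 ± 0.20 in the treated groups. Markers of hepatocytes stood at a mean level of 3.29 to 3.49 on the 12 arrays.

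Of the 9 probe sets, 6 were among the 21729 bright enough to be tested, and these cover 6 of the 7 genes. Ahrr had a single probe set, which fell among the dimmest 30%, as did the second probe sets of Ahr and Tiparp. None of the 6 tested probe sets of these genes passed the brightness filter through its treated groups alone. The control mean of each was above the filter's threshold of -0.123.

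The windows from 250 bases before to 50 bases after the start of transcription were available from RefSeq (assembly GRCr8) for 6 of the 7 genes, all but Cyp1a1. They were searched on both strands for GCGTG, the core of the response element, and for TNGCGTG, a longer form that contains the core. Printed 5' to 3' along the gene are Ahrr and Cyp1b1, which hold the longer form, and Tiparp and Cyp1a2, the other targets described beside Cyp1a1. Capitals mark GCGTG, or CACGC where the match is on the opposite strand.
Ahrr: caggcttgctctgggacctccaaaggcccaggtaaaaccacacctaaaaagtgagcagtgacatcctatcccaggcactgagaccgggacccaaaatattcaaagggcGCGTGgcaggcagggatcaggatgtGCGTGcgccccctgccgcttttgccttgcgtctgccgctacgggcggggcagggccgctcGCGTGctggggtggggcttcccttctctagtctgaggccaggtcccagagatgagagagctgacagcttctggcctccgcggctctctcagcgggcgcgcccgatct
Cyp1b1: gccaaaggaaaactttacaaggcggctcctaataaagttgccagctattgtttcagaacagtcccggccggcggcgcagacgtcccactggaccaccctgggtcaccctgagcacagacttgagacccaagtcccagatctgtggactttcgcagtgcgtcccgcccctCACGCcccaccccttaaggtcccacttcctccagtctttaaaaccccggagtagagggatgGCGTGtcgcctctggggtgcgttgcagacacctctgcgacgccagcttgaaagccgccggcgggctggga
Tiparp: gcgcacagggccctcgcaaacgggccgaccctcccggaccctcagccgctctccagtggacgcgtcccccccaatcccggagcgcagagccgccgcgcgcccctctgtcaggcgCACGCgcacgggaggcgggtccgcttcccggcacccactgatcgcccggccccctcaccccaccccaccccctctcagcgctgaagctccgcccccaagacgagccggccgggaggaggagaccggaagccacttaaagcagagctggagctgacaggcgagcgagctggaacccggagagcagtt
Cyp1a2: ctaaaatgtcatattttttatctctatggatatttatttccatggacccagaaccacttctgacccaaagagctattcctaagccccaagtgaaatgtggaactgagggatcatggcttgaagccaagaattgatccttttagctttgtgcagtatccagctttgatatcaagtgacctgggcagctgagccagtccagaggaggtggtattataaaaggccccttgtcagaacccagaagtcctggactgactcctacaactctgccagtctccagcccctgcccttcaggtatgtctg
The Ahrr window (chr1:30821969-30822268, plus strand) held 3 cores, at 142, 117 and 57 bases before the start, and the nearest of them was part of the longer form. The Cyp1b1 window (chr6:21094315-21094614, plus strand) held 2 cores, at 81 bases before the start on the minus strand and at 20 bases before it on the plus strand, the nearer one within the longer form. The Tiparp window (chr2:152063519-152063818, plus strand) held 1 core, at 136 bases before the start. No core was found in the Cyp1a2 window (chr8:66978100-66978399, minus strand) or in that of Ahr (chr6:57998852-57999151, minus strand), and that of Arnt (chr2:185686453-185686752, plus strand) held 1. Of 33469 windows in the RefSeq table, 29.7% held the core and 4.89% the longer form, so a core is a common run of letters. These matches describe the letters of short windows and say nothing about binding in these livers.

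Cyp1a1, which oxidises polycyclic aromatic hydrocarbons and is the classic induced target of AhR, rose with myclobutanil and with propiconazole. Its level (probe set 1370269_at) was 0.0283, 0.0625 and 0.0556 in control replicates 1 to 3. It was 0.715, 0.626 and 1.17 with myclobutanil. Every myclobutanil liver thus lay above every control, and the control livers lay within a narrow band. With propiconazole the levels were 1.08, 0.592 and 1.34, and with triadimefon 0.471, 0.354 and 0.61. In all 3 treated groups the lowest liver lay well above the highest control. Cyp1a1 was the sole tested member with this pattern, and 3.97% of all tested probe sets shared it. In the single comparisons with control, 10.2% (myclobutanil), 12.1% (propiconazole) and 12.5% (triadimefon) of probe sets had all treated livers above all controls, so separation of 3 from 3 livers is frequent in this table.

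**Figure D1:**
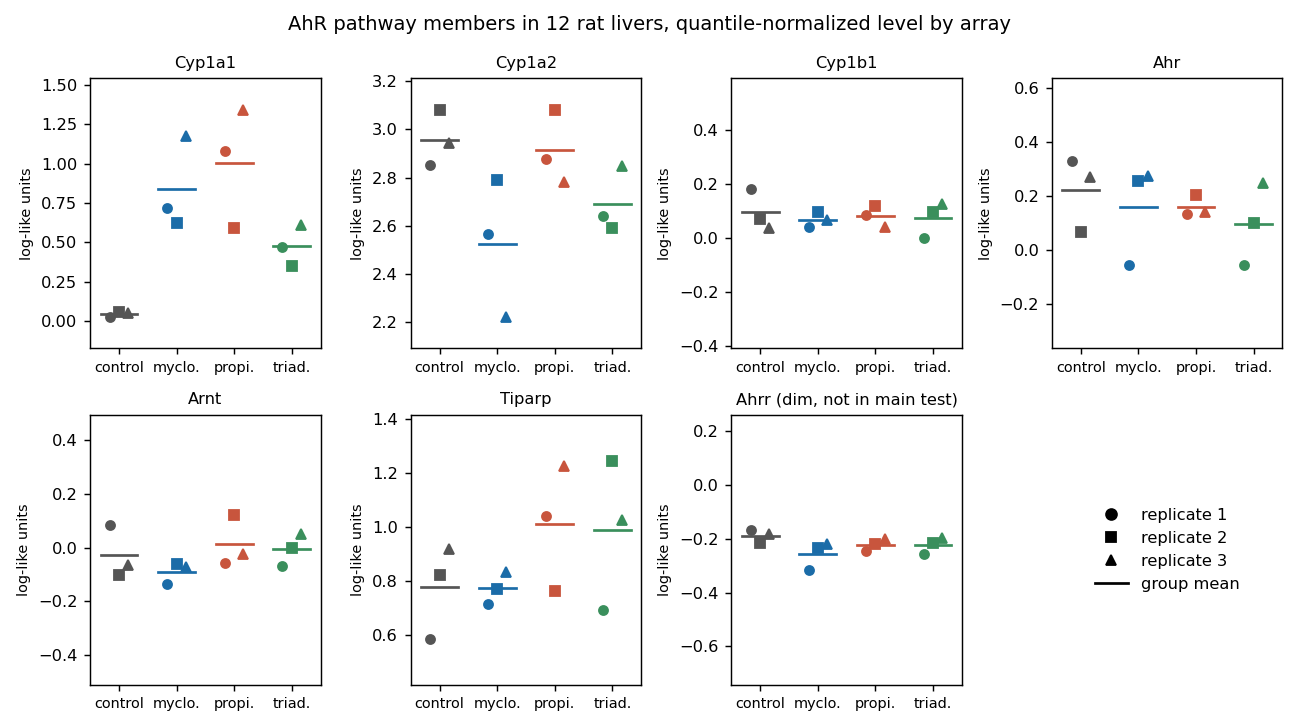
Level of the 7 genes in each of 12 rat livers by group, in log-like units after quantile normalization, 1 panel per gene with its brighter probe set. Marker shapes give the replicate number in the labels and lines the group means. The Cyp1a1 points of all 3 treated groups, 0.354 to 1.34, lie above the controls, at most 0.0625, while the Cyp1b1, Ahr, Arnt and Tiparp points overlap between treated and control groups.

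The mean Cyp1a1 level was 0.0488 ± 0.0181 in control, 0.838 ± 0.293 with myclobutanil, 1.01 ± 0.381 with propiconazole and 0.478 ± 0.128 with triadimefon (SD, n = 3). The difference from control was 0.789 ± 0.176 for myclobutanil (SE; 95% interval 0.404 to 1.17; limma adjusted p = 0.0492). It was 0.956 ± 0.176 for propiconazole (0.571 to 1.34; adjusted p = 0.0278). These were the 33rd and 28th largest rises among all tested probe sets. For triadimefon the difference was 0.429 ± 0.176 (0.0442 to 0.815) and did not pass (adjusted p = 0.318). The background of calls in either direction was 1.82% of probe sets for myclobutanil, 1.43% for propiconazole and 0.769% for triadimefon. An exact two-sided permutation test of Cyp1a1 alone gave p = 0.1 for each compound, the smallest value that 3 against 3 livers can give.

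The calls for Cyp1a1 rest on few livers. The myclobutanil call was lost in the deposited values without quantile normalization (0.775, adjusted p = 0.0545) and in 8 of 12 fits that left out 1 liver. Without myclobutanil replicate 3 the difference was 0.618 (adjusted p = 0.118), and without control replicate 1, 2 or 3 the adjusted p was between 0.118 and 0.167. It was also lost without propiconazole replicate 1 (0.0740) or triadimefon replicate 1, 2 or 3 (0.0716, 0.0730 and 0.0761), which contribute to the shared estimate of spread. The propiconazole call was lost in 5 of the 12 such fits: without any 1 of the controls (adjusted p from 0.0885 to 0.117), without propiconazole replicate 1 (0.108) and without propiconazole replicate 3 (difference 0.785, adjusted p = 0.108). The triadimefon difference passed when its livers and the controls were fitted without the other groups (adjusted p = 0.0177).

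**Figure D2:**
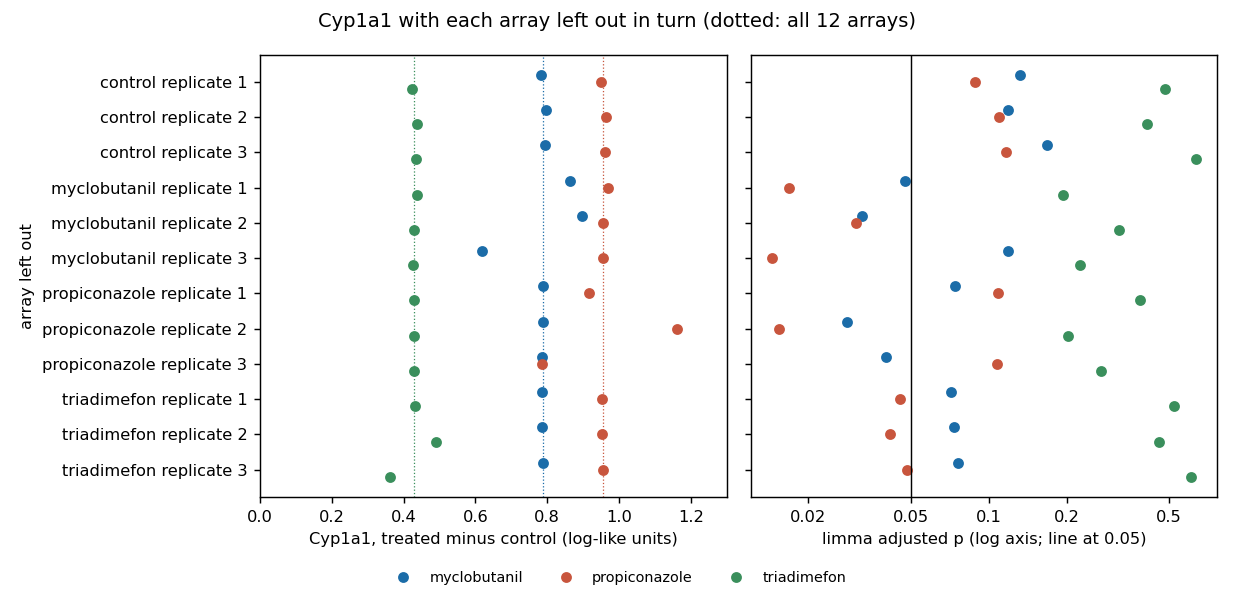
Cyp1a1, treated minus control, with each of the 12 arrays left out in turn. The left panel gives the difference in log-like units, with dotted lines at the values from all 12 arrays, and the right panel the limma adjusted p on a log axis with a line at 0.05. The myclobutanil difference stays between 0.618 and 0.895 and that of propiconazole between 0.785 and 1.16, while the adjusted p crosses 0.05 in both.

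Cyp1a2, the constitutive hepatic enzyme that metabolises caffeine and many aromatic amines, did not rise with Cyp1a1. Its level (probe set 1387243_at) was 2.85, 3.08 and 2.94 in the controls and 2.56, 2.79 and 2.22 with myclobutanil. With propiconazole it was 2.88, 3.08 and 2.78, and with triadimefon 2.64, 2.59 and 2.85. All myclobutanil and all triadimefon livers lay below the lowest control, the triadimefon group by a narrow margin, while the propiconazole livers overlapped the controls. The background for groups lying wholly below the controls was 13.1% of probe sets for myclobutanil and 15.8% for triadimefon. The mean was 2.96 ± 0.115 in control, 2.53 ± 0.287 with myclobutanil, 2.91 ± 0.154 with propiconazole and 2.69 ± 0.136 with triadimefon (SD, n = 3).

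None of these differences of Cyp1a2 passed the test. The myclobutanil difference was -0.432 ± 0.137 (95% interval -0.733 to -0.131; limma adjusted p = 0.117). The propiconazole difference was -0.0438 (-0.345 to 0.257; adjusted p = 0.927) and that of triadimefon -0.265 (-0.566 to 0.0354; adjusted p = 0.437). The size of these differences depends on the scaling: in the deposited values control replicate 3 stood at 3.38, and the differences were -0.657 (adjusted p = 0.106) for myclobutanil, -0.266 for propiconazole and -0.432 for triadimefon. Without myclobutanil replicate 2, the highest liver of its group, the myclobutanil difference was -0.570 and passed (adjusted p = 0.0411). Rat Cyp1a1 and Cyp1a2 are close paralogs, and how far the probe set of each also reads the other was not tested.

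**Figure D3:**
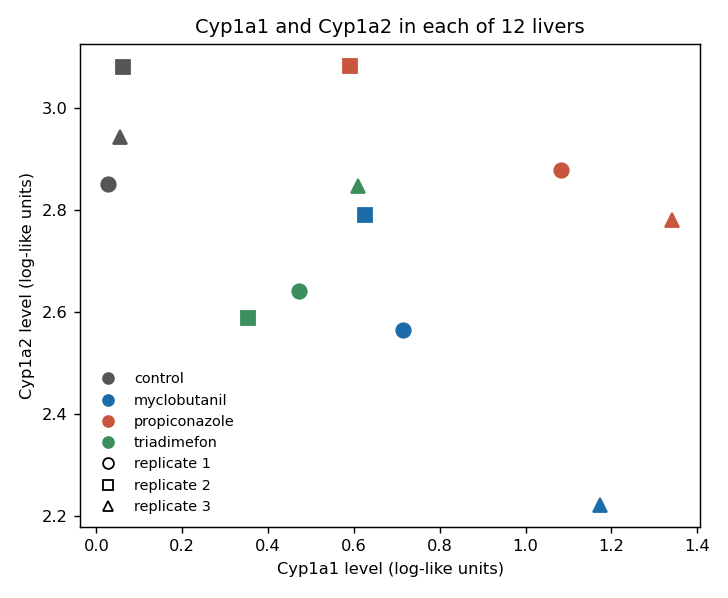
Level of Cyp1a1 (horizontal axis) against Cyp1a2 (vertical axis) in each of 12 livers, in log-like units. Colours give the group and marker shapes the replicate number. The liver of myclobutanil replicate 3 has the highest Cyp1a1 level (1.17) and the lowest Cyp1a2 level (2.22) of its group, and propiconazole replicate 3 likewise has the highest Cyp1a1 (1.34) and the lowest Cyp1a2 (2.78), whereas triadimefon replicate 3 has the highest level of both in its group (0.61 and 2.85).

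Cyp1a2 belongs to a list of genes of hepatocytes near the central vein, 14 of which were tested. With myclobutanil 1 of them rose, Aldh1a1, a retinal-oxidising enzyme that is also on the list of CAR and PXR targets, and 1 fell, Cyp2e1, an ethanol-oxidising P450 (-0.588 ± 0.107, limma adjusted p = 0.0253). With propiconazole Aldh1a1 rose and Oat, an ornithine-degrading enzyme, fell (-0.712 ± 0.138, adjusted p = 0.0322), and with triadimefon 1 rose, Aldh1a1, and 0 fell. The median differences of this list were -0.118, -0.0588 and -0.119 for myclobutanil, propiconazole and triadimefon, beside medians of -0.0129, -0.0132 and -0.0155 over all 11842 tested genes. Of 14 tested genes of hepatocytes near the portal vein, Hal, which degrades histidine, fell with myclobutanil (-0.580 ± 0.124, adjusted p = 0.0442) and Asl, of the urea cycle, rose with propiconazole (0.784 ± 0.0995, adjusted p = 0.00661). In triadimefon livers none of the portal genes passed. At an unadjusted limma p under 0.05, 0 portal genes were higher and 3 lower with myclobutanil. The counts were 2 and 2 with propiconazole and 2 and 2 with triadimefon. For the list near the central vein they were 2 and 6, 2 and 5, and 2 and 2 for the 3 compounds. Over all probe sets 21.1%, 14.5% and 13.4% had such a p. With 1 of the 12 arrays left out in turn, the calls of Cyp2e1, Oat, Hal and Asl stood in 8, 6, 3 and 12 fits, and those of Cyp2e1, Oat and Hal were lost without any 1 of the controls. The portal medians were -0.118, -0.0440 and -0.0362. Over all 11842 tested genes, 151, 118 and 66 rose and 116, 81 and 33 fell with myclobutanil, propiconazole and triadimefon.

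Cyp1b1, which hydroxylates oestrogens and is expressed in liver chiefly by stellate cells, had differences close to 0. It was measured (probe set 1368990_at) at 0.183, 0.0686 and 0.0373 in controls and at 0.0402, 0.0953 and 0.0647 with myclobutanil. With propiconazole the levels were 0.0837, 0.118 and 0.0398, and with triadimefon -0.000262, 0.0961 and 0.124. The highest of the 12 values was a control, and each treated group overlapped the controls. The differences were -0.0295 ± 0.0457 for myclobutanil (95% interval -0.130 to 0.0708; limma adjusted p = 0.731), -0.0157 for propiconazole (-0.116 to 0.0846; adjusted p = 0.921) and -0.0228 for triadimefon (-0.123 to 0.0775; adjusted p = 0.878).

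These are bulk samples, so for any gene of a single cell type fewer cells and less RNA per cell cannot be told apart. Of 12 tested stellate cell and fibroblast markers, a list that includes Cyp1b1, Rgs5, a pericyte signalling regulator, rose with myclobutanil (0.459 ± 0.0897, limma adjusted p = 0.0344). Lrat, which esterifies retinol for storage in stellate cells, fell with myclobutanil (-0.361 ± 0.0690, adjusted p = 0.0322) and with propiconazole (-0.399, adjusted p = 0.0231). With 1 array left out in turn, the Rgs5 call stood in 4 of 12 fits and each Lrat call in 7, and all were lost without control replicate 2 or 3. Among all 11842 tested genes, 151 rose with myclobutanil, and 116 and 81 fell with myclobutanil and propiconazole. The medians of this list were -0.0269, -0.00990 and 0.112 for myclobutanil, propiconazole and triadimefon, and with triadimefon 0 of the 12 passed. With an unadjusted p under 0.05, 2 were higher and 1 lower with myclobutanil, 1 and 1 with propiconazole, and 2 and 1 with triadimefon. Over all probe sets 21.1%, 14.5% and 13.4% had such a p.

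The receptor and its partner were each measured without a difference that passed. Ahr (probe set 1369146_a_at) was at 0.329, 0.0679 and 0.27 in controls, -0.0553, 0.257 and 0.276 with myclobutanil, 0.133, 0.205 and 0.139 with propiconazole, and -0.0572, 0.101 and 0.247 with triadimefon. All groups overlapped, and the spread within the control group was as wide as that between groups. The differences of Ahr from control were -0.0630 ± 0.0998 (95% interval -0.282 to 0.156; limma adjusted p = 0.738), -0.0632 (adjusted p = 0.832) and -0.125 (-0.344 to 0.0937; adjusted p = 0.634) for myclobutanil, propiconazole and triadimefon. The second Ahr probe set (1369147_at) was dim, between -0.182 and -0.127 on all arrays, and its differences were 0.00739, 0.00233 and -0.00266.

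Arnt, the partner through which AhR binds DNA, was measured by probe set 1369244_at. Its levels were 0.0834, -0.101 and -0.0653 in controls, -0.137, -0.0602 and -0.0729 with myclobutanil, -0.0582, 0.119 and -0.0247 with propiconazole, and -0.0669, -0.00218 and 0.051 with triadimefon. Each treated group overlapped the controls. The differences were -0.0624 ± 0.0571 for myclobutanil (limma adjusted p = 0.544), 0.0396 for propiconazole (adjusted p = 0.810) and 0.0216 for triadimefon (adjusted p = 0.916).

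Tiparp, an ADP-ribosyltransferase that modifies AhR and limits its action, was measured by probe set 1374446_at. Its levels were 0.587, 0.824 and 0.921 in controls and 0.716, 0.773 and 0.836 with myclobutanil. They were 1.04, 0.765 and 1.23 with propiconazole and 0.694, 1.25 and 1.03 with triadimefon. In each of the latter groups 2 of 3 livers lay above every control and 1 lay within their range. The differences were -0.00240 ± 0.147 for myclobutanil (95% interval -0.325 to 0.320; limma adjusted p = 0.994), 0.234 for propiconazole (-0.0882 to 0.556; adjusted p = 0.508) and 0.211 for triadimefon (-0.111 to 0.533; adjusted p = 0.580). The dim second probe set of Tiparp (1385407_at) gave 0.0830, 0.178 ± 0.0629 and 0.127, with adjusted p of 0.476, 0.278 and 0.483 in a fit without the brightness filter.

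Ahrr, the repressor that competes with AhR for Arnt, was dim in every liver (probe set 1380746_at). It was at -0.169, -0.216 and -0.185 in controls, -0.315, -0.235 and -0.222 with myclobutanil, -0.247, -0.219 and -0.202 with propiconazole, and -0.258, -0.216 and -0.199 with triadimefon. After quantile normalization the myclobutanil livers all lay below the controls and the other treated groups overlapped them. In the deposited values myclobutanil replicate 1 (-0.199) lay above control replicate 2 (-0.215), so these 2 groups overlapped. Among tested probe sets, 13.1% had all myclobutanil livers below all controls. In the fit without the brightness filter the differences were -0.0672 ± 0.0299 (95% interval -0.133 to -0.00153; limma adjusted p = 0.257), -0.0327 (adjusted p = 0.762) and -0.0342 (adjusted p = 0.726). At this brightness a change in Ahrr may not be detectable. Of the 3 targets with a core motif in the printed windows, Cyp1b1 and Tiparp had no difference that passed, and Ahrr was not in the main test. No window was available for Cyp1a1, and whether a motif goes with a response was not tested.

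**Figure D4:**
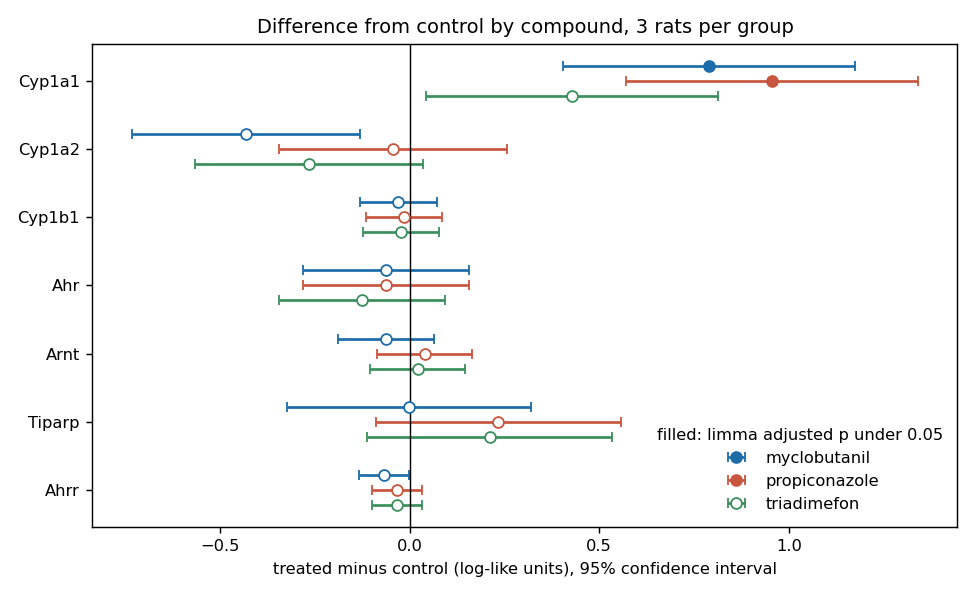
Difference from control for each gene and compound in log-like units with its 95% confidence interval, 3 rats per group. Filled points passed the limma test at an adjusted p of 0.05, which Cyp1a1 did with myclobutanil (0.789) and propiconazole (0.956). Ahrr comes from the fit without the brightness filter.

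Across the 6 tested genes, 1 rose and 0 fell with myclobutanil, 1 rose and 0 fell with propiconazole, and 0 passed with triadimefon in limma, where 1 of 6 had an unadjusted p under 0.05. Over all probe sets, the share with an unadjusted p under 0.05 was 21.1% for myclobutanil, 14.5% for propiconazole and 13.4% for triadimefon. An F test over the 3 comparisons with control asks whether a gene differed from control in any treated group. By this test 1.07% of all probe sets passed and none of the 6 genes did, Cyp1a1 being nearest (adjusted p = 0.0623). The adjusted F p was 0.268 for Cyp1a2, 0.565 for Tiparp, 0.624 for Arnt, 0.801 for Ahr and 0.953 for Cyp1b1.

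The compounds share a triazole ring and differ in the rest of the molecule: a nitrile group is found in myclobutanil, a dioxolane ring in propiconazole, and a ketone in triadimefon. At their matched dose, myclobutanil and propiconazole did not differ in Cyp1a1 (-0.167, 95% interval -0.552 to 0.218, limma adjusted p = 0.699) beyond the spread, and their livers overlapped. For Cyp1a2, myclobutanil minus propiconazole was -0.389 (-0.689 to -0.0876; adjusted p = 0.437), again with overlap. In this comparison 0% of all probe sets passed in limma, and 2200 had an unadjusted p under 0.05. Of the 6 genes, 0 passed and 1, Cyp1a2, had an unadjusted p under 0.05. These intervals leave room for differences of either sign in Cyp1a1.

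Triadimefon was dosed lower, so its values stand beside the others without a comparison of potency. Myclobutanil minus triadimefon was 0.360 for Cyp1a1 (95% interval -0.0255 to 0.745; limma adjusted p = 0.660), with all myclobutanil livers higher, a pattern that 5.24% of probe sets shared. Propiconazole minus triadimefon was 0.527 for Cyp1a1 (0.142 to 0.912; adjusted p = 1), with overlap. For Cyp1a2 these differences were -0.167 (adjusted p = 0.698) and 0.222 (adjusted p = 1). The share of all probe sets that passed was 0.0276% for myclobutanil against triadimefon and 0% for propiconazole against triadimefon, where 803 had an unadjusted p under 0.05.

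The wider set of AhR targets held few further calls. Of 14 tested targets, 2 rose with myclobutanil, Cyp1a1 and Nqo1, 1 rose with propiconazole, Cyp1a1, and 0 passed with triadimefon. None fell. Over all 11842 tested genes, 151, 118 and 66 rose with myclobutanil, propiconazole and triadimefon. With an unadjusted p under 0.05, 5 targets were higher and 4 lower with myclobutanil. The counts were 4 and 2 with propiconazole, and 2 and 1 with triadimefon. Such a p was held by 21.1%, 14.5% and 13.4% of all probe sets. The comparisons share their 3 control livers. Nqo1, a quinone reductase that both AhR and Nrf2 induce, rose with myclobutanil by 0.700 ± 0.10 (limma adjusted p = 0.0115), and its differences were 0.417 (adjusted p = 0.0746) with propiconazole and 0.256 (adjusted p = 0.30) with triadimefon. The myclobutanil call for Nqo1 was lost without quantile normalization (0.628, adjusted p = 0.0562) and without control replicate 3 (adjusted p = 0.0529). The median difference over the 14 targets was 0.0458, 0.111 and 0.0453, beside the slightly negative all-gene medians given above. Counting differences above 0, 7, 9 and 8 of the 14 targets were higher with myclobutanil, propiconazole and triadimefon, and over all genes 45.3%, 43.9% and 42.9% were.

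Other targets gave differences of either sign that did not pass. Abcg2, a drug efflux pump, was at 0.411 above control with myclobutanil (limma adjusted p = 0.0810). Ugdh, which makes the cofactor for glucuronidation, was at 0.287 with myclobutanil and 0.297 with propiconazole. Nfe2l2, which encodes Nrf2, was at 0.251 with myclobutanil. On the other side of 0, Xdh, xanthine dehydrogenase, was at -0.368 with myclobutanil, and Slc46a3, a lysosomal transporter, at -0.290 (adjusted p = 0.0708).

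Genes of the AhR complex and its coregulators showed few calls, and those were falls. Among all 11842 tested genes, 116, 81 and 33 fell with myclobutanil, propiconazole and triadimefon. Of the 19 tested from this list, 1 fell in each comparison with control and 0 rose. The gene was Rb1, the retinoblastoma protein, with myclobutanil (-0.222 ± 0.0497, limma adjusted p = 0.0496) and with propiconazole (-0.243, adjusted p = 0.0406), while its triadimefon difference of -0.244 had an adjusted p of 0.0531. With triadimefon it was Bmal1, a circadian relative of Arnt (-0.676 ± 0.0941, adjusted p = 0.0122), whose differences were -0.122 and -0.367 with the other compounds. The Rb1 calls stood in 5 (myclobutanil) and 9 (propiconazole) of 21 alternatives and were lost in the deposited values and without any 1 of the controls. The Bmal1 call was lost without control replicate 1 (adjusted p = 0.0555), control replicate 3 (0.0645) or triadimefon replicate 2 (0.0595). The chaperone Hsp90ab1, which holds unliganded AhR, was at -0.0122, 0.372 ± 0.222 and 0.205, and its cochaperone Ptges3 at 0.196, 0.330 and 0.237, none of which passed. The list medians were -0.0410, 0.00869 and 0.0216.

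**Figure D5:**
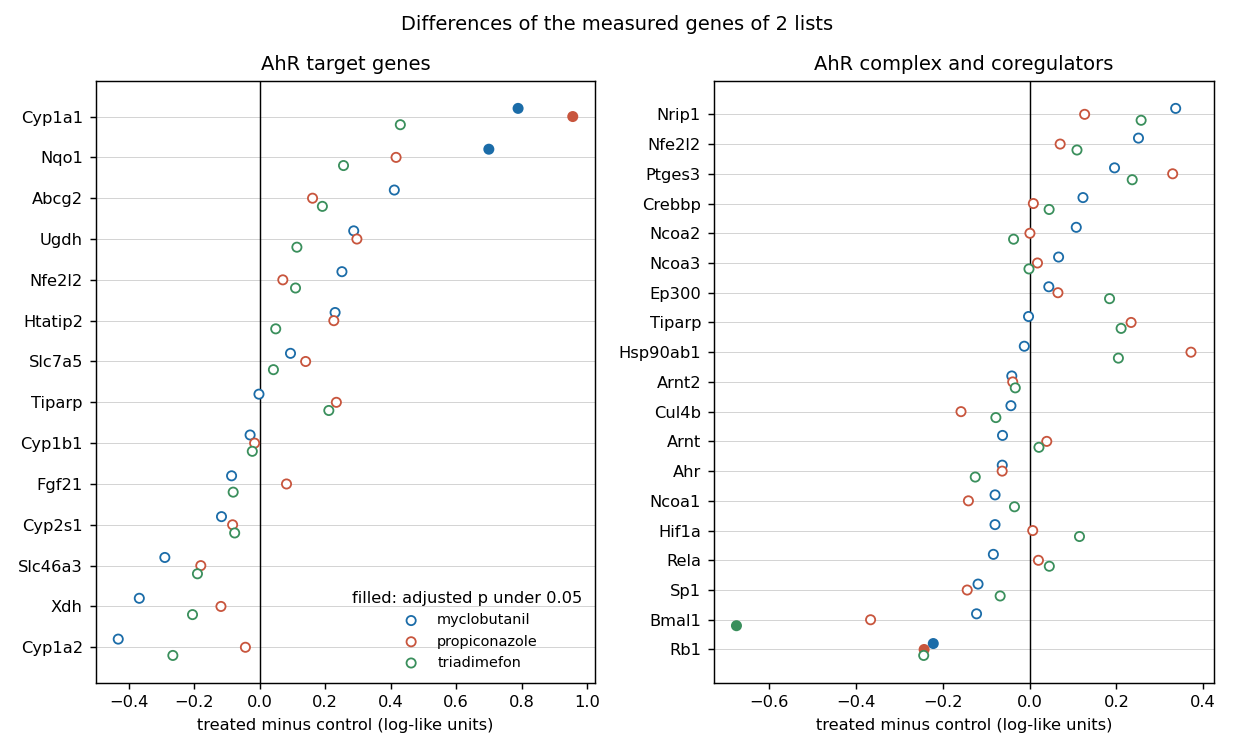
Treated minus control for each tested gene of 2 lists, AhR targets (left) and the AhR complex with its coregulators (right), in log-like units. Filled points passed at a limma adjusted p of 0.05: Cyp1a1 with myclobutanil and propiconazole, Nqo1 with myclobutanil, Rb1 with myclobutanil and propiconazole, and Bmal1 with triadimefon.

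Beside these stood the targets of CAR and PXR, the nuclear receptors through which many azoles induce drug metabolism. Of 21 tested, 7 rose with myclobutanil, 6 with propiconazole and 6 with triadimefon, 0 fell, and 14, 15 and 15 did not pass. Over all 11842 tested genes, 151, 118 and 66 rose. Gsta3, a glutathione transferase, was the highest called with myclobutanil (1.73 ± 0.179, limma adjusted p = 0.00358). Ces2c, a carboxylesterase, was the highest with propiconazole (1.48 ± 0.176, adjusted p = 0.00582). Por, the reductase that passes electrons to microsomal P450 enzymes, Cyp1a1 among them, rose by 0.638 ± 0.127 with myclobutanil, 1.04 with propiconazole and 1.24 with triadimefon. Ugt2b1, a glucuronosyltransferase, rose by 1.12, 0.902 and 0.910, and Aldh1a1 by 1.0, 1.13 and 0.935. Cyp3a23-3a1, the best known PXR target of the rat, rose by 0.407, 0.341 and 0.411, and Abcc3, an export pump, rose with myclobutanil (0.692 ± 0.107, adjusted p = 0.0133). The list medians were 0.407, 0.341 and 0.379. All 3 Cyp3a23-3a1 calls were lost in the deposited values without quantile normalization, where the differences were 0.133, 0.0989 and 0.209 (limma adjusted p = 0.793, 0.867 and 0.750), and with median centring. The Ugt2b1 calls with propiconazole and triadimefon were also lost in the deposited values (adjusted p = 0.0880 and 0.0985). Por with myclobutanil stood in 11 of 21 alternatives and in 5 of 12 fits with 1 array left out.

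Markers of other cells moved in the same livers. Of 9 tested Kupffer cell and macrophage markers, 5 fell with myclobutanil: Clec4f (-1.35), Cd5l (-1.32), C1qa (-1.0), C1qc (-0.731) and Adgre1 (-0.304). In limma 0 of the 9 passed with propiconazole or triadimefon. None had an unadjusted p under 0.05 there, beside 14.5% and 13.4% of all probe sets. With 1 array left out in turn, these calls stood in 8, 1, 9, 5 and 3 of 12 fits, and all 5 were lost without any 1 of the controls. Of all 11842 tested genes, 116 fell with myclobutanil. All 9 differences were below 0 with myclobutanil and with propiconazole, and 7 with triadimefon, with medians of -0.657, -0.0844 and -0.149. Over all genes 45.3%, 43.9% and 42.9% of differences were above 0, with medians of -0.0129, -0.0132 and -0.0155. The mean level of the 9 was 1.09 to 1.25 in controls, 0.237 to 0.814 with myclobutanil, 1.03 to 1.17 with propiconazole and 1.02 to 1.17 with triadimefon. Their part in the myclobutanil values of Cyp1a1, Cyp1a2, Nqo1 and Ahrr was not tested.

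Among 9 tested endothelial markers, Kdr, a VEGF receptor, fell with myclobutanil (-0.549 ± 0.114, limma adjusted p = 0.0407) and propiconazole (-0.640, adjusted p = 0.0268), and Tek, the angiopoietin receptor, fell with propiconazole (-0.298 ± 0.0555, adjusted p = 0.0283). With triadimefon 0 of these 9 passed and 2 had an unadjusted p under 0.05, beside 13.4% of all probe sets. None of 4 cholangiocyte markers passed, Epcam having the smallest p (propiconazole, 0.517 ± 0.15, adjusted p = 0.133), and none of 9 leukocyte markers did, with Prf1 nearest (myclobutanil, -0.155 ± 0.0380, adjusted p = 0.0660). Of 11 hepatocyte markers, Apoa1 rose with propiconazole (0.485 ± 0.0888, adjusted p = 0.0278), and none passed with the other compounds. There 2 (myclobutanil) and 1 (triadimefon) had an unadjusted p under 0.05, beside 21.1% and 13.4% of all probe sets. With 1 array left out in turn, the Kdr calls stood in 3 and 7 of 12 fits, that of Tek in 5 and that of Apoa1 in 6, and all were lost without any 1 of the controls. In the deposited values the Apoa1 difference was 0.230 and its call was lost (adjusted p = 0.581). Of all 11842 tested genes, 118 rose with propiconazole, and 116 and 81 fell with myclobutanil and propiconazole.

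The genes whose levels followed Cyp1a1 most closely over the 12 arrays, among 11841 others, were Ube2j1 (Pearson r = 0.953), Golt1b (0.953), Tma16 (0.947), Ube2f (0.935) and Mdn1 (0.923). The most opposite were Cd81 (-0.934), Car5a (-0.923) and Thrap3 (-0.923). Of the former, Tma16 rose with myclobutanil (0.263, limma adjusted p = 0.0471) and propiconazole (0.299, adjusted p = 0.0322), as did Ube2f (0.319, adjusted p = 0.0407, and 0.360, adjusted p = 0.0278). With 1 array left out in turn, these calls stood in 2 and 4 of 12 fits for Tma16 and in 2 and 6 for Ube2f, and were lost without any 1 of the controls. For Cyp1a2 the closest were Tcn2 (0.924), Car12 (0.882), Mgst3 (0.875), C1h11orf98 (0.870) and Nox4 (0.868), and the most opposite Dsc2 (-0.932), Arfgap3 (-0.924) and Nsun2 (-0.910). None of these 16 is another of the 7 genes. Golt1b had a control mean of -0.137, below the brightness filter's threshold of -0.123, so it was tested only because its treated groups were brighter. The points share the groups and the arrays, so these correlations describe the table and carry no test. Tma16 and Ube2f were picked for following Cyp1a1, which was above the controls in all treated livers. Their rises were thus favoured by the choice, and their adjusted p lend no support.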

How the data were processed

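Liver RNA of 12 rats was hybridised to 12 arrays, 1 liver each, per the labels' protocols, so the spread behind each p-value is that between rats. The authors deposited 1 score per probe set on a log-like scale. How they summarised and normalized probes, with which software and in which log base, is not given in the sources used here. The values were used as deposited, without conversion. They were log-like rather than plainly log2, so the planned limma fit was kept on the score.

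The 57 control probe sets were left out, the other 31042 were quantile normalized, and the 9313 with the lowest mean (30%) were left out as dim, leaving 21729. Genes came from the platform annotation, which can be old: 20826 probe sets had 1 gene, 436 several and 9780 none listed. Symbols were updated by Entrez ID with a RefSeq table (GRCr8) for 20758. Lists used 1 probe set per gene, the one with the highest mean, for 11842 genes.

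limma 3.58.1 (R 4.3.3) fitted 4 group means with trended empirical Bayes shrinkage and 8 residual degrees of freedom before shrinkage. P-values were two-sided and adjusted by Benjamini-Hochberg over all probe sets, and 0.05 was the threshold. The procedure was tested on simulated data, whose results are not given here and support nothing above. The number of arrays limits the precision.

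The 7 genes and all gene lists were chosen with earlier results of these data known, so they support nothing independently. Named were all 9 probe sets, the called genes of each list (at most 6 per comparison, by smallest p) or its nearest gene, and the 5 most similar and 3 most opposite genes for Cyp1a1 and Cyp1a2. The few further AhR pathway and tryptophan genes given with values that did not pass were picked with their values known. The number in each rat's label is not stated to be shared, and deviations of same-numbered arrays gave r from -0.494 to 0.495 with a median of -0.0265, 3 of 18 over 0.1, so the numbers were treated as names. Figures used matplotlib 3.10.9 (Python 3.11.15).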

Additional observations from a re-analysis of the deposited data

How the results depend on the processing

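For the 6 tested genes, 36 differences gave 762 values under the alternatives: 741 kept their direction or their side of the threshold, 19 calls were lost, 2 were gained and 0 called values reversed. A further 47 values that were called in neither fit changed sign and are among the 741. Most of the 741 were called in neither fit. The only calls among the 36 were those of Cyp1a1 with myclobutanil and propiconazole, which stood in 7 and 16 of 21 alternatives. All 19 losses were of these calls. For the other named genes, 88 differences gave 1841 values, of which 1554 kept their side, 271 calls were lost, 16 were gained and 0 reversed. All of these are limma fits, and the cause of each change was not tested.

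The number of probe sets called was 395 for myclobutanil, 311 for propiconazole and 167 for triadimefon. It was 1668, 1313 and 1028 with array weights, 8, 648 and 621 with the 2 groups fitted alone, and 30 to 924, 36 to 969 and 6 to 611 with 1 array left out. With the replicate number as a block it was 180, 121 and 87. Of 12 arrays, 3 correlated best with an array of their own number. Without myclobutanil replicate 1, the array set apart by its median and correlations, the counts were 670, 969 and 611. That array is in neither the propiconazole nor the triadimefon comparison with control, but contributes to the shared estimate of spread. Between myclobutanil and propiconazole the 0 calls became 1 in deposited values, 1 with median centring, 2 with the dimmest 50% left out, 5 without the trend, 343 with array weights and 0 to 29 with 1 array left out. Between myclobutanil and triadimefon the 6 became 1 without the filter, 0 without the trend, 1 with robust shrinkage, 340 with weights, 0 with the 2 groups alone, 0 with the block and 0 to 35 with 1 array left out. Between propiconazole and triadimefon the 0 became 45 with weights and 0 to 1 with 1 array left out.

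Of the 6 genes, the myclobutanil count of 1, Cyp1a1, became 0 in deposited values, with median centring (0.753, adjusted p = 0.0770), without the filter (0.0598), without the trend (0.0506), with robust shrinkage (0.0514) and with the 2 groups alone (0.134), and 0 to 2 with 1 array left out. It was 1 with the dimmest 50% left out (0.0393), array weights (0.631, adjusted p = 0.0322) and the block (0.0340). The propiconazole count of 1 held in each alternative except leave-one-out (0 to 1), and the Cyp1a1 adjusted p was 0.0228 with the block. The triadimefon count of 0 became 1 with the 2 groups alone. In the F test the 0 became 1 with the dimmest 50% left out, with weights and with the block, and 0 to 1 with 1 array left out. Of Cyp1a2 with myclobutanil, median centring gave -0.679 (adjusted p = 0.0819) and weights -0.258.

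Of the AhR complex list, the count of 1 for myclobutanil and of 1 for propiconazole became 0 in deposited values, with median centring and without the filter, and the triadimefon count of 1 became 2 with the dimmest 50% left out. Of the AhR targets, the myclobutanil count of 2 became 0 in deposited values, 0 with median centring and 1 without the filter. Dim probe sets, Ahrr above all, limit what can be seen.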

Other observations

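Enzymes of the breakdown of tryptophan to kynurenine and related compounds, several of these compounds being AhR ligands, were also measured in these livers. Of 12 tested, 1 rose with myclobutanil: Kyat1, an aminotransferase acting on kynurenine (0.570 ± 0.0691, limma adjusted p = 0.00748), with differences of 0.283 (adjusted p = 0.0778) and 0.277 (adjusted p = 0.106) for propiconazole and triadimefon. None of the 12 passed with those compounds, and none fell. Among all 11842 tested genes, 151 rose with myclobutanil. With an unadjusted p under 0.05, 2 were higher and 6 lower with myclobutanil, 2 and 4 with propiconazole, and 2 and 4 with triadimefon, where 21.1%, 14.5% and 13.4% of all probe sets had such a p. Kynu, which cleaves kynurenine, was at -0.629 ± 0.173 (adjusted p = 0.0845), -0.415 and -0.694 (adjusted p = 0.105). Kmo, which hydroxylates kynurenine, was at -0.390, -0.432 and -0.184, and Aldh2, which oxidises aldehydes, at -0.610 ± 0.147 (adjusted p = 0.0629), -0.182 and -0.426. The list medians were -0.150, -0.139 and -0.148 for myclobutanil, propiconazole and triadimefon, beside all-gene medians of -0.0129, -0.0132 and -0.0155.

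In each of the 3 treated groups the rat numbered 3 had the highest Cyp1a1 level and the rat numbered 2 the lowest. The levels for rat 3 were 1.17, 1.34 and 0.61, and those for rat 2 were 0.626, 0.592 and 0.354. The controls did not share this order: control rat 2 had the highest level (0.0625) and control rat 1 the lowest (0.0283). The labels do not say that a number marks a shared litter, cage or day, and over all genes same-numbered arrays did not deviate together.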
